A study of Homo sapiens with 6 samples.

Results

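The chemokine receptor genes CCR1, CCR2, CCR7, CXCR2, CXCR3, CXCR4, CX3CR1 and CCRL2 were followed through 6 RNA sequencing libraries of U937 cells. The 8 genes were taken by symbol from the 60612 Ensembl identifiers of the deposited count table, and each matched 1 identifier. U937 is an established human myeloid line that was first grown from a histiocytic lymphoma and that the labels class as acute myeloid leukemia, with genotype WT. The B2 group comprised 3 libraries of cells given 1 µM B2, a compound known only by this code name, for 36 h, and the DMSO group comprised 3 libraries of cells given the DMSO vehicle for the same 36 h. Cells of both groups had been grown with fetal bovine serum and were held in serum-free RPMI-1640 during the exposure, so every library comes from serum-starved cells of 1 line. By the series title B2 is aimed at S100A9, and the design sets gene expression under B2 beside that under vehicle. Both groups carry replicate numbers 1 to 3, and the labels do not tie replicates to cultures of their own, so a p-value here weighs only library-to-library spread, which may be technical.

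Chemokine receptors are seven-pass membrane proteins of the rhodopsin class that couple to inhibitory G proteins and steer leukocytes along gradients of chemokines. After ligand binding they activate phosphoinositide 3-kinase and Rac, and are then switched off by receptor kinases and arrestins. Monocytes classically use CCR2 to leave the bone marrow, CX3CR1 for patrolling and survival, and CCR1 and CXCR4 for recruitment and retention. CXCR2 is best known from neutrophils, CXCR3 and CCR7 from lymphocytes and dendritic cells. CCRL2 is an atypical member that binds chemerin and does not signal in the usual way.

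Promoter windows from RefSeq (GRCh38.p14, 250 bases before to 50 bases after the start site) are shown for 4 receptors: CCR1, CXCR4 and CCRL2, whose RNA was highest in both libraries of replicate number 3, and CCR2, which had the lowest unadjusted p among those leaning the other way. The window was available for 7 of the 8 genes. Capitals mark matches on either strand to the interferon-gamma-activated site TTCNNNGAA, the interferon-stimulated response element core, the PU.1 core GAGGAA, the AP-1 site TGANTCA and the TATA box TATAAA.
CCR1, chr3:46208264-46208563, minus strand: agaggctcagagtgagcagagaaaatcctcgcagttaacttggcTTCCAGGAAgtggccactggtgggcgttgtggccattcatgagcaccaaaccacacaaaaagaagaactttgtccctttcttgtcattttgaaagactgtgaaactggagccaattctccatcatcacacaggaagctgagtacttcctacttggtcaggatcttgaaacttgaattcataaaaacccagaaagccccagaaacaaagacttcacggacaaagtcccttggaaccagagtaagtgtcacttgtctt
CXCR4, chr2:136118100-136118399, minus strand: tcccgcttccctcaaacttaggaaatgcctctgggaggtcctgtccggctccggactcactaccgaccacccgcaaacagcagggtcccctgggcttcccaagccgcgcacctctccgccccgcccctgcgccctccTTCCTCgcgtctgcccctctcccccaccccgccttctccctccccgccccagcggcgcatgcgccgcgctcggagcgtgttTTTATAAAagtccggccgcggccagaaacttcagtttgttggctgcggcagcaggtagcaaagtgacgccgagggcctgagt
CCRL2, chr3:46407009-46407308, plus strand: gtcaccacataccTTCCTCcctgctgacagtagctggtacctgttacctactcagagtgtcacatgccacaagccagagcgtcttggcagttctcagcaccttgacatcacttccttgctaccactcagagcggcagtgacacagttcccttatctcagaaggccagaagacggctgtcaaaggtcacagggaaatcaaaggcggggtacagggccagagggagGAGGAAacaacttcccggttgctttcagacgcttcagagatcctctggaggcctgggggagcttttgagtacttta
CCR2, chr3:46353861-46354160, plus strand: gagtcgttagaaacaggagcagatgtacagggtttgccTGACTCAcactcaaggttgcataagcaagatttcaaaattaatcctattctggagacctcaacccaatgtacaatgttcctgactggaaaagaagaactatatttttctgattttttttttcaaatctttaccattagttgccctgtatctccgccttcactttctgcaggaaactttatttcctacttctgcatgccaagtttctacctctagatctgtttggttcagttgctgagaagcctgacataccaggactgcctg
The CCR1 window held 1 TTCNNNGAA match, at -206 from the start, a motif found in 7.66% of all 35116 windows. The CXCR4 window held the PU.1 core once, at -113, and TATA matches on both strands that overlap each other at -32 and -30. GAGGAA occurred in 27.9% of all windows and TATAAA in 11.5%. CCRL2 had GAGGAA at -237 and -26, and CCR2 had TGANTCA at -212, which occurred in 7.71% of windows. The CXCR3 window, which is not shown, also held GAGGAA, at -229 and -27. The interferon-stimulated response element core, present in 3.57% of all windows, was not found in the windows of these 7 genes. A match is a stretch of letters and not a measured binding site.

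CXCR4 dominated the family. Per kilobase of exon, its level, in CPM (counts scaled to the TMM-adjusted library size) divided by exon length in kilobases (RPKM), ran from 159 to 345 RPKM over the 6 libraries, above every other member in all 6, and it held 81.2% to 88.8% of the summed CPM of the 8 genes. CCR1 came next, at 6.67 to 25.7 RPKM, again above all lower-ranked members in 6 of 6 libraries. CXCR2 at 1.72 to 5.88 RPKM and CX3CR1 at 2.46 to 7.68 RPKM could not be ordered, since each was the higher in 3 of 6 libraries. CCRL2, at 2.83 to 5.01 RPKM, overlapped both of them. CCR2 stood at 0.269 to 1.26 RPKM and CXCR3 at 0 to 0.344 RPKM. Their ranges overlapped, but CCR2 was the higher in 6 of 6 libraries, narrowly so in DMSO replicate 1 (0.326 against 0.316 RPKM). CCR7 had 0 counts in all 6 libraries, where 3 counts would have read 0.0386 to 0.0537 CPM. These limits and all small values cover counting error only.

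**Figure D1:**
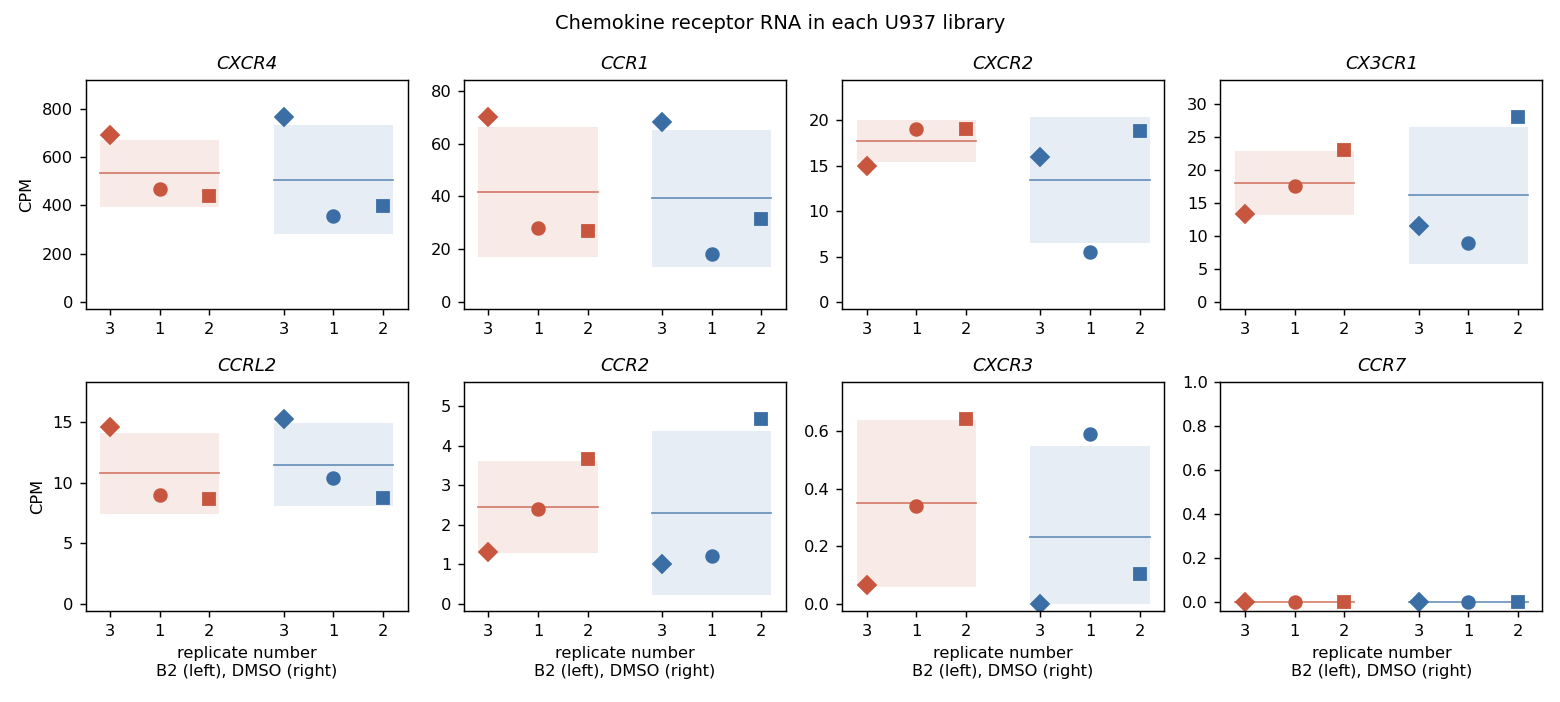
CPM (linear axes that include 0, a scale of its own in each panel) of the 8 chemokine receptor genes in each library, B2 in red at the left and DMSO in blue at the right, with diamonds, circles and squares for replicate numbers 3, 1 and 2. Lines and bands are the mean and SD of each group (n = 3), and the diamonds of CXCR4, CCR1 and CCRL2 lie above all other points of their panels.

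Among the inflammatory CC receptors, CCR1 (ENSG00000163823, chromosome 3, 46201709 to 46208396, GRCh38) binds CCL3, CCL5 and related chemokines. B2 replicates 1, 2 and 3 held 27.9, 26.9 and 70.2 CPM of it, against 18.2, 31.5 and 68.3 CPM in DMSO replicates 1, 2 and 3. Its level was thus high in both libraries numbered 3 and the treatment groups overlapped. CCR2 (ENSG00000121807, chromosome 3, 46353734 to 46360928) is the receptor for CCL2 and CCL7. Its level was 2.40, 3.67 and 1.32 CPM in B2 replicates 1, 2 and 3, against 1.22, 4.69 and 1.00 CPM under DMSO. CCR2 was highest in both libraries numbered 2 and the groups again overlapped.

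CXCR4 (ENSG00000121966, chromosome 2, 136114349 to 136118165), the receptor of CXCL12, read 467, 439 and 691 CPM in B2 replicates 1, 2 and 3, against 355, 398 and 766 CPM with DMSO. CXCR2 (ENSG00000180871, chromosome 2, 218125289 to 218137253), which binds CXCL8 and the other neutrophil-attracting chemokines, read 19.0, 19.0 and 15 CPM with B2, against 5.55, 18.8 and 15.9 CPM with DMSO. The one low CXCR2 value was DMSO replicate 1, while the other 5 libraries lay within 15 to 19.0 CPM. Of the stretches of 50 bases in its longest transcript 7.17% also occur in CXCR1 or the pseudogene CXCR2P1, and its value is uncertain to that extent. CX3CR1 (ENSG00000168329, chromosome 3, 39263494 to 39281735), the fractalkine receptor, read 17.6, 23.0 and 13.3 CPM with B2, against 8.97, 28.1 and 11.6 CPM with DMSO. It was highest in both libraries numbered 2, like CCR2, and lowest in DMSO replicate 1.

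CCRL2 (ENSG00000121797, chromosome 3, 46407163 to 46412997), the atypical receptor, read 9.02, 8.66 and 14.6 CPM in B2 replicates 1, 2 and 3, against 10.4, 8.73 and 15.3 CPM under DMSO. It was the member whose same-numbered libraries lay closest, with B2 over DMSO ratios of 0.868, 0.992 and 0.954 in numbers 1, 2 and 3. CXCR3 (ENSG00000186810, chromosome X, 71615916 to 71618517), the receptor of CXCL9, CXCL10 and CXCL11, had 25, 47 and 4 counts with B2, against 33, 8 and 0 counts under DMSO, which is 0 to 0.643 CPM. Such counts are too few to rank the libraries firmly. CCR7 (ENSG00000126353, chromosome 17, 40553769 to 40565472), the lymph node homing receptor, was not detected. None of the 8 genes has an exon that overlaps another gene in GENCODE 29.

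The B2 libraries had chemokine receptor levels that could not be told from those of the DMSO libraries. Of the 7 members that passed the filter on low counts, 0 were called by edgeR's quasi-likelihood test at an adjusted p below 0.05, where 0.0% of the 17224 genes tested were called. At an unadjusted p below 0.05 there were 0 members, against 0.493% of all genes, and DESeq2 and limma-voom also called 0 members. The groups did not overlap for 0 of the 7 members, against 3.56% of all genes. CCR1 averaged 41.6 ± 24.7 CPM with B2 and 39.3 ± 26.0 CPM with DMSO (SD, n = 3 each). Its log2 fold change was 0.08, with a standard error (SE) of 0.55. CXCR4 averaged 532 ± 138 and 506 ± 226 CPM with B2 and DMSO, a log2 fold change of 0.07 (SE 0.37). CXCR2 had the highest fold change of the abundant members, 17.7 ± 2.31 CPM with B2 against 13.4 ± 6.96 CPM with DMSO, or 0.40 (SE 0.44). Without DMSO replicate 1 the CXCR2 fold change was 0.04. CX3CR1 was at 0.15 (SE 0.47), CCR2 at 0.10 (SE 0.66), CCRL2 at -0.09 (SE 0.36) and CXCR3 at 0.63 (SE 1.33). The edgeR adjusted p was 1.0 for each of the 7.

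The 95% intervals show what sizes of change the fit with treatment as the only term, which ignores the replicate numbers, could not exclude. For CXCR4 the interval of the log2 fold change ran from -0.77 to 0.91, for CCRL2 from -0.91 to 0.73, for CCR1 from -1.19 to 1.35 and for CCR2 from -1.41 to 1.60. With the replicate number as a block the intervals were narrower, and 0 members were called. They ran from -0.39 to 0.65 for CXCR4, -0.66 to 0.48 for CCRL2, -0.46 to 0.74 for CCR1 and -0.46 to 1.12 for CCR2. For CX3CR1, CXCR2 and CXCR3 the block gave -0.38 to 0.96, -0.27 to 1.36 and -1.0 to 3.9. Within pairs of the same number, CCR1 stood at 1.53, 0.853 and 1.03 times its DMSO level in B2 replicates 1, 2 and 3, and CXCR4 at 1.32, 1.10 and 0.902 times. These ratios lie on both sides of 1 for CCR1, CCR2, CXCR2, CXCR4 and CX3CR1, with the highest ratio of the 3 in number 1 for each of the 5. Single libraries set the sign for most members: CCR1 was at -0.53 without B2 replicate 3 and at 0.74 without DMSO replicate 3, and CCR2 at -0.27 without B2 replicate 2 and at 1.11 without DMSO replicate 2.

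**Figure D2:**
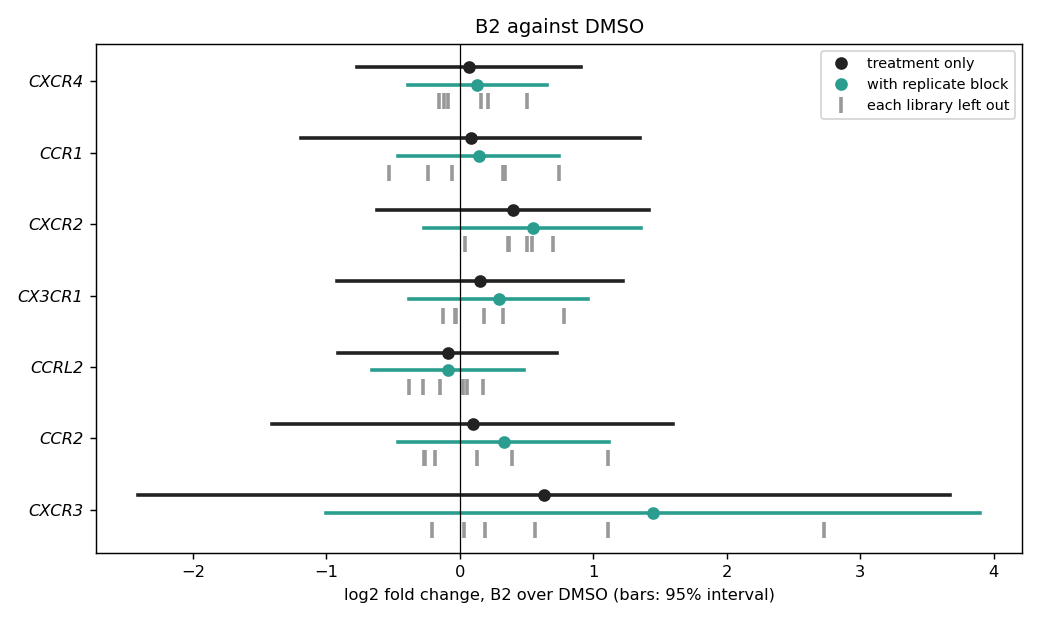
Log2 fold change of B2 over DMSO for the 7 tested members, with 95% intervals from edgeR with treatment as the only term (black) and with the replicate block (green), and the fold change with each of the 6 libraries left out in turn (grey ticks). Every interval includes 0, and the grey ticks of CXCR4, CCR1, CX3CR1, CCRL2, CCR2 and CXCR3 fall on both sides of 0.

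DMSO replicate 1 was the lowest of the 6 libraries for 4 of the 7 tested members, CCR1, CXCR2, CXCR4 and CX3CR1, where it was lowest for 32.5% of all tested genes. That library favoured GC-rich and short genes: its deviation from the mean of all libraries correlated with transcript GC content at 0.54 and with exon length at -0.30 (Spearman across 17015 genes, which are not independent). For GC content the B2 libraries numbered 1, 2 and 3 had 0.22, -0.31 and 0.06, while DMSO replicates 2 and 3 had -0.61 and 0.11. The transcripts of CCR1, CCR2, CXCR2, CXCR4, CX3CR1 and CCRL2 had 43.0% to 47.8% GC. All of these lay below the median of 49.7% over tested genes (quartiles 43.0% and 56.9%). The transcript of CXCR3 had 61.4% GC and that of CCR7, which was not detected, 55.0%. With this trend removed, the log2 fold change of B2 over DMSO was 0.01 for CCR1, -0.03 for CXCR4, 0.38 for CXCR2 and 0.15 for CX3CR1. Epithelial markers had 8 of 8 fold changes of B2 over DMSO above 0, with 0 called, where 6535 of all 17224 genes tested were above 0. The epithelial markers summed to 30.1, 30.5 and 37.3 CPM in the B2 libraries and 3.33, 11.1 and 26.8 CPM in the DMSO libraries. Their part in the receptor levels was not tested.

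Across replicate numbers CCR1 rose in number 3, and the other 6 members tested did not pass the test. The log2 fold changes of the 7 had a median of 0.11, with 4 above and 3 below 0, against a median of -0.05 over all genes, with 8036 above and 9188 below 0. In an edgeR fit with treatment and number, the test asks whether a gene differs among numbers 1, 2 and 3, and the size is given as number 3 over the mean of numbers 1 and 2, a contrast chosen with earlier results known. The number 3 mean of CCR1 was 69.3 CPM, with 23.0 and 29.2 CPM for numbers 1 and 2, a log2 fold change of 1.42 (SE 0.28, edgeR adjusted p = 0.0416). Within the treatments the ratio was 2.56 with B2 and 2.75 with DMSO. It was the 1 member called of the 7 tested, where 2.68% of all genes were called and 2.20% were called with a higher level in number 3. At an unadjusted p below 0.05 there were 5 of the 7 members, CCR1, CCR2, CXCR3, CXCR4 and CX3CR1, where 21.8% of all genes passed. The call was lost without B2 replicate 3 (adjusted p = 0.422), without DMSO replicate 3 (0.542), without DMSO replicate 1 (0.0612) and with library totals as the scaling (0.128), while the log2 fold change stayed between 1.30 and 1.60 in every alternative.

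CXCR4 and CCRL2 had values in the same direction as CCR1 without passing the test. CXCR4 had a number 3 mean of 729 CPM, with 411 and 418 CPM for numbers 1 and 2, a log2 fold change of 0.82 (SE 0.25, edgeR adjusted p = 0.158), and it was called with DESeq2 (0.0398) and without both libraries numbered 1 (0.0472). CCRL2 averaged 15 CPM, against 9.70 and 8.69 CPM, or 0.71 (SE 0.27, adjusted p = 0.254). For CCR1, CXCR4 and CCRL2, both libraries numbered 3 lay above the other 4, an arrangement seen in 12.3% of all tested genes. CCR2 lay the other way at 1.16 CPM in number 3, against 1.81 and 4.18 CPM in numbers 1 and 2, a log2 fold change of -1.25 (SE 0.40, adjusted p = 0.0745). Its 3 lowest values were 1.00 CPM in DMSO replicate 3, 1.22 CPM in DMSO replicate 1 and 1.32 CPM in B2 replicate 3, so the numbers overlapped. CCR2 was called with RLE factors (adjusted p = 0.0355), limma-voom (0.0423) and DESeq2 (0.0342), and its adjusted p over the alternatives ran from 0.0038 to 0.611. CX3CR1 was at -0.56 (SE 0.33, adjusted p = 0.161). Its mean of 12.5 CPM in number 3 was close to the 13.3 CPM of number 1, while number 2 had 25.5 CPM. CXCR2 was at 0.11 (SE 0.38, adjusted p = 0.490), with 15.5 CPM in number 3, against 12.3 and 18.9 CPM in numbers 1 and 2. CXCR3 was the 1 member with both libraries numbered 3 below the other 4, as were 12.1% of all genes, but on 4 and 0 counts. Without B2 replicate 1, 6 members were called instead of 1, together with 4124 genes instead of 461.

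**Figure D3:**
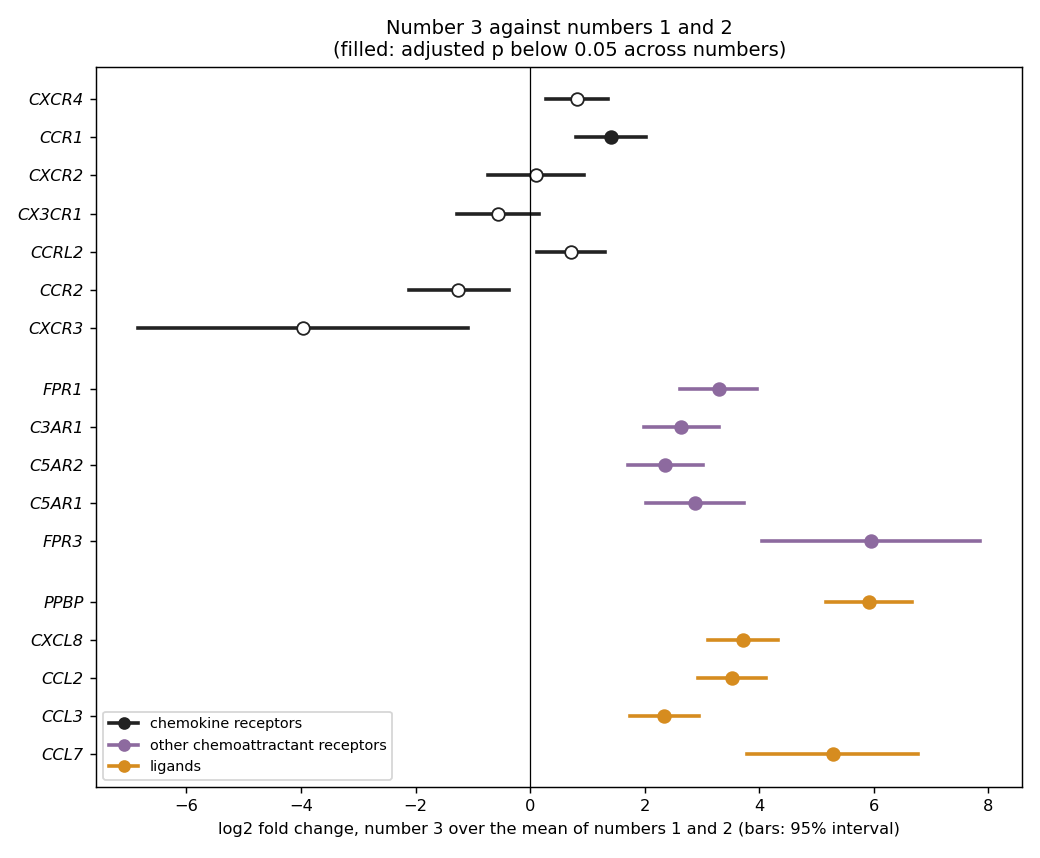
Log2 fold change of number 3 over the mean of numbers 1 and 2, with 95% intervals from the edgeR fit with treatment and number, for the 7 tested chemokine receptors (black) and for the called genes among the other chemoattractant receptors (purple) and the ligands (orange). Filled points had an adjusted p below 0.05 across numbers, which among the chemokine receptors held for CCR1. The purple and orange genes were drawn because they were called, so their place to the right of the receptors is no comparison of the lists. Genes of those lists that were not called are not drawn. Of all tested, 1 of the 12 other receptors and 1 of the 11 ligands were below 0.

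Macrophage markers moved with number 3. Of 12 listed, 9 were tested and all 9 were called higher in number 3, where 2.20% of all genes were, their sum being 1640 CPM (B2) and 1850 CPM (DMSO) in number 3, and 103 to 194 CPM for numbers 1 and 2. MRC1 had 0 counts throughout and MSR1 at most 4. T cell markers summed to 3.73 (B2) and 5.16 CPM (DMSO) in number 3 and to 0.311 to 1.12 CPM elsewhere, with 3 of 8 tested. Of these CD2 was called higher in number 3, at 3.38 and 4.57 CPM against 0.203 to 0.739 CPM (log2 fold change 3.28, edgeR adjusted p = 0.00268), while CD3D, CD3E, CD3G and CD28 had 0 counts in every library. The B cell markers MS4A1 and BLK were also at 0, and 0 of the 4 tested B cell markers were called. Of 4 tested neutrophil markers 1 was called, CEACAM8, at 7.29 and 7.37 CPM in number 3 against 0.311 to 1.24 CPM elsewhere (log2 fold change 3.79, edgeR adjusted p = 0.000194). The epithelial markers had 8 of 8 fold changes above 0 in number 3, EPCAM only at 0.0 after rounding, with a median of 1.2 and 0 called. Of the 17224 genes tested 8036 were above 0. The epithelial sum in number 3 was 37.3 CPM with B2, against 30.1 and 30.5 CPM in B2 replicates 1 and 2. With DMSO it was 26.8 CPM, against 3.33 and 11.1 CPM, so the difference lay mostly in the DMSO libraries. The part of all these markers in the levels of CCR1, CXCR4, CCRL2 and CCR2 was not tested. In bulk RNA, more cells of a type and more RNA per cell cannot be told apart. The 8 myeloid identity markers, among them CD33, SPI1 and CEBPA, were all tested and summed to 6600 (B2) and 7610 CPM (DMSO) in number 3, and to 2780 to 4970 CPM elsewhere. Most of that sum was the integrin subunit ITGB2, at 4350 (B2) and 5180 CPM (DMSO) in number 3. ITGB2 was the 1 of them called, with a log2 fold change of 1.22 (edgeR adjusted p = 0.0396). Of the 8 fold changes 5 were above 0 and 3 below, those of CD33 (-0.05), CEBPA (-0.02) and MPO (-1.49). MPO was low at 17 to 122 counts. CD2, CEACAM8 and ITGB2 are named here after their values were seen.

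Few other members of the receptor family were expressed. Of the 15 other classical and atypical chemokine receptor genes, 5 passed the filter, 0 were called in either comparison, and CCR6, CCR8 and ACKR1 had 0 counts in all libraries. The other 15 together summed to 2.54 to 7.87 CPM, against 400 to 879 CPM for the 8 members. ACKR2, a scavenger of inflammatory CC chemokines, had the smallest p of those 15 against treatment and read 5.95, 2.41 and 2.57 CPM under B2, against 1.25, 5.03 and 1.46 CPM under DMSO. CXCR5, the B cell follicle receptor, read 0.0813, 0 and 0.71 CPM under B2, against 0, 0.142 and 0.425 CPM under DMSO. The exons of both overlap other genes, so their values are uncertain.

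Receptors for other chemoattractants rose in number 3 in 5 of 12 cases tested, where 2.20% of all genes did, and the difference from the 1 of 7 chemokine receptors was not tested. The median log2 fold change of the 12 was 1.09, that of the 7 members 0.11 and that of all genes -0.05. FPR1, the formyl peptide receptor, had 11.0 (B2) and 11.8 CPM (DMSO) in number 3, against 0.901 to 1.40 CPM elsewhere, a log2 fold change of 3.29 (SE 0.31, edgeR adjusted p = 0.000182). C3AR1, the receptor of the anaphylatoxin C3a, read 67.3 and 76.1 CPM, against 8.38 to 14.8 CPM, and C5AR1, the C5a receptor, 82.4 and 99.3 CPM, against 4.79 to 19.3 CPM. C5AR2, a second C5a receptor, had a fold change of 2.36 (SE 0.30). FPR3 had 137 and 175 counts in number 3, against 0 to 15 elsewhere, and its call was lost with library totals (adjusted p = 0.0617) and DESeq2 (0.0758). The C5AR1 fold change was 2.88 with all libraries and 3.54 without DMSO replicate 1, and that of FPR3 was 5.95 and ran from 4.39 without DMSO replicate 3 to 10.44 without B2 replicate 3. None of the 12 was called between B2 and DMSO (4 positive, 8 negative).

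Ligands of the members were also higher in number 3 where they were called. Of 26 listed ligand genes 11 were tested and 5 were called, all higher in number 3, where 2.20% of all genes were. While 6 of the 26 had 0 counts throughout, not every untested ligand was absent. CXCL10 had 129 (B2) and 268 counts (DMSO) in number 3 and CCL8 153 and 191, with 0 in the other libraries. The filter by treatment group left both untested. The median log2 fold change was 2.34 over the 11 and -0.05 over all genes. CCL2, the ligand of CCR2, had 144 (B2) and 141 CPM (DMSO) in number 3, against 9.15 to 16.4 CPM elsewhere (log2 fold change 3.52, SE 0.27, edgeR adjusted p = 5.04e-05). CCR2 itself stood at 1.32 and 1.00 CPM in the same libraries and at 1.22 to 4.69 CPM in the others. CCL3, a ligand of CCR1 whose exons overlap a gene on the other strand, read 28.2 and 38.0 CPM, against 4.09 to 10.0 CPM. The CXCR2 ligands CXCL8 and PPBP read 40.5 and 55.4 CPM, against 3.01 to 5.09 CPM, and 16.2 and 12.3 CPM, against 0.151 to 0.433 CPM. CXCR2 itself stood at 15 and 15.9 CPM in number 3 and 5.55 to 19.0 CPM elsewhere. CCL7, a ligand of CCR1 and CCR2, had 296 and 443 counts in number 3, against 0 to 17 elsewhere, with a fold change of 5.28 that was 8.23 without B2 replicate 2 and a call that was lost without DMSO replicate 1 (adjusted p = 0.0663) and with DESeq2 (0.0705). CXCL12, a ligand of the abundant CXCR4, had at most 4 counts, and CX3CL1, the ligand of CX3CR1, at most 7. MIF, also listed as a ligand of the members, was abundant at 113 to 326 CPM. It was the 1 of the 11 with a fold change below 0 in number 3 (-0.59, edgeR adjusted p = 0.228). Its exons overlap other genes, and it is named here after its values were seen. None of the 11 was called between B2 and DMSO.

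Counts for the signalling machinery behind the receptors were present in all 6 libraries for 34 of 35 genes, RGS1 being the exception. Of the 35 genes for G protein subunits, receptor kinases, arrestins, RGS proteins and effectors, 34 were tested, and 0 were called between B2 and DMSO (5 positive, 29 negative, median -0.15 against -0.08 for all genes).

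**Figure D4:**
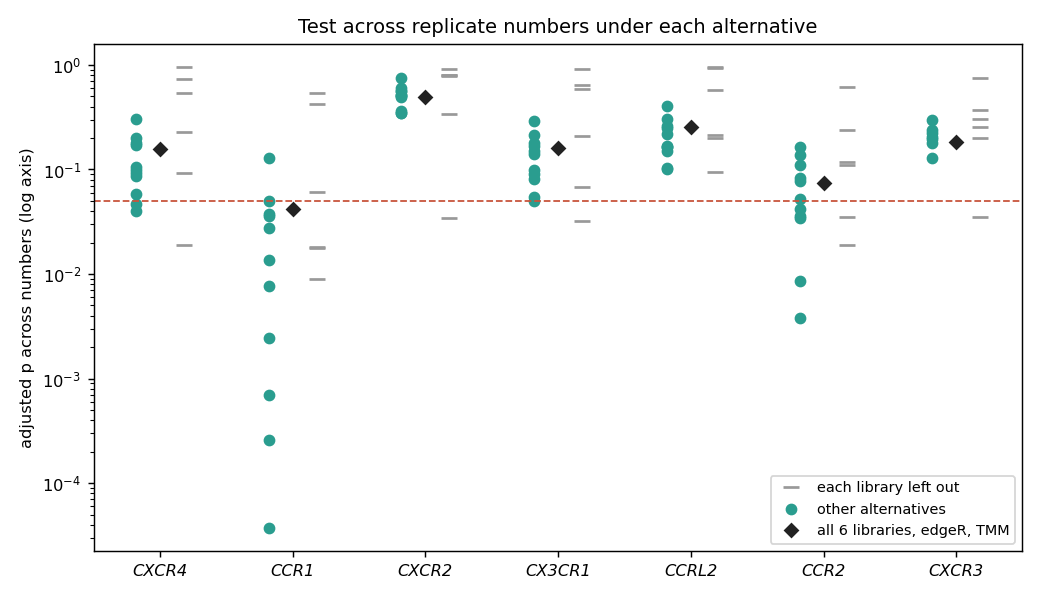
Adjusted p of the test across replicate numbers (log axis) for the 7 tested members with all libraries and TMM factors (black diamonds), under the other alternatives (green circles) and with each library left out (grey dashes), with the threshold of 0.05 as a dashed line. CCR1 lies below the line at 0.0416 and crosses it in 4 alternatives, and CCR2 lies above it at 0.0745.

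The genes whose pattern over the 6 libraries was most like each member were found by Pearson correlation of log2(CPM + 1) among 12874 genes averaging at least 1 CPM, as a description in which all points share depth and library trends. For CCR1 they were EMC7 and H2AC6 (r = 0.996 each), for CXCR4 CD53 (0.997) and SLC39A11 (0.996), and for CCRL2 LOXL3 and NAGK (0.999 each). CD53, a leukocyte tetraspanin, read 108 and 136 CPM in number 3 and 42.6 to 61.9 CPM elsewhere. For CX3CR1 they were UBP1 and SMC1A (0.999 each), for CCR2 SRSF1 (0.996) and an identifier without a symbol, and for CXCR2 CXorf38 (0.999) and INPP4A (0.998). SMC1A, a cohesin subunit, had 348 (B2) and 453 CPM (DMSO) in number 2 and 104 to 260 CPM elsewhere. CXCR3, compared with 12875 genes, was nearest to FGF11 (0.961) and SYNPO (0.960). Such likeness was common with 6 libraries, except for CXCR3. Genes that passed r = 0.95 numbered 761 with CX3CR1, 424 with CCRL2, 400 with CCR2 and 262 with CXCR2. They numbered 172 with CCR1, 168 with CXCR4 and 9 with CXCR3.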

How the data were processed

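RNA abundance was measured by sequencing TRIzol-extracted total RNA, per the labels' protocols. The authors deposited estimated counts (expected counts) per Ensembl gene, 1 column per library and not normalized. HISAT2 2.0.4 was used, per the submitters' processing notes. How reads were counted (program, build, annotation, strand) is not given in the sources used here, and reads of antisense genes cannot be told apart. All values were whole, so rounding changed nothing, but 4 occurred 6465 times against 3144 for 3 and 2022 for 5, so small counts are inexact. Library totals ran from 61150740 to 78431054.

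Genes kept by filterByExpr in the treatment groups (minimum count 10, total 15) were scaled with TMM factors (0.862 to 1.073) and tested with edgeR 4.0.16 under R 4.3.3 (glmQLFit, glmQLFTest, Benjamini-Hochberg over 17224 genes, threshold 0.05). Standard errors come from the F statistic. Alternatives used DESeq2 1.42.0 and limma 3.58.1. The scripts were tested on simulated data. Taking each library's difference from its group mean, B2 and DMSO libraries of 1 number correlated at 0.40, 0.67 and 0.73 (numbers 1, 2 and 3), each above 0.1. The numbers thus pair libraries, from the data and not the labels. Positions and lengths come from GENCODE 29 (GRCh38). The members and lists were chosen with earlier results of these data known. Named genes were the 8 members, up to 6 called genes of each other list (2 with the smallest p where none was called) and the 2 genes most like each member. Some results of these lists are not reported here.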

Additional observations from a re-analysis of the deposited data

How the results depend on the processing

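Between B2 and DMSO, 0 members were called under every alternative run. The count over all genes was 0 except with DESeq2 (3), without both libraries numbered 3 and with the replicate block (48), and without 1 library (0 to 1). The replicate block gave 0 genes and 0 members and changed no call. With the GC and length trend removed CXCR4 was at -0.03, and CXCR5 was at -0.50 with limma-voom. Leaving out 1 library gave log2 fold changes from -0.53 to 0.74 for CCR1, -0.27 to 1.11 for CCR2, -0.21 to 2.73 for CXCR3, -0.16 to 0.50 for CXCR4, -0.13 to 0.78 for CX3CR1, -0.38 to 0.17 for CCRL2, 0.04 to 0.70 for CXCR2, -0.02 to 1.41 for ACKR2 and -2.18 to 1.80 for CXCR5.

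Across numbers, the count of genes was 461, against 956 with RLE factors, 266 with library totals, 2110 with the stricter filter (minimum count 50), 1671 with DESeq2, 1278 with limma-voom, 2379 with counts divided by 4, 752 with the GC and length trend removed, 846 without both libraries numbered 1 and 388 to 4124 without 1 library. Members called were 1, against 2 with RLE factors, the stricter filter, limma-voom or number 1 left out, 3 with DESeq2 or counts divided by 4, 0 with library totals and 0 to 6 without 1 library. CXCR2 was at -0.24 without number 1 and from -0.40 to 0.59 without 1 library. The other 6 members kept their sign under every alternative that tested them. The alternatives removing the GC and length trend, leaving out number 3 or number 1, or filtering by number were chosen after seeing the data. A stricter filter and divided counts test fewer genes. The cause of the shifts in these counts, with those settings or any other, was not tested. CCR7 and most of the other chemokine receptors lie at or near the counting floor, where a change could not have been detected.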
